A study of Mus musculus with 8 samples.

Results

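The 9 genes described here, Adgre1, Csf1r, Cd68, C1qa, C1qb, C1qc, Cd74, H2-Aa and H2-Ab1, mark tissue macrophages and the machinery that presents antigen on MHC class II. They were taken by symbol from the 18846 genes that the deposited RNA-seq tables hold for whole mouse adrenal glands. Each of 8 libraries came from 1 gland of 1 129SVEV mouse, in 4 groups of 2 animals, 1 labelled male and 1 labelled female. The groups were Siah1a-/- mice injected intraperitoneally with adrenocorticotropic hormone (ACTH) at 100 ug/kg and left for 1 h, Siah1a-/- mice with no agent, wild-type mice given the same ACTH injection, and wild-type mice with no agent. Siah1a encodes a RING-type ubiquitin ligase, and ACTH is the pituitary hormone that drives glucocorticoid output of the adrenal cortex. The labels name no vehicle injection, so ACTH and the injection itself cannot be told apart, and they give no age and no description of the Siah1a allele.

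Macrophages are a resident immune population of the adrenal gland, where they lie among steroid-producing and chromaffin cells, clear dying cells and sample antigen. Class II molecules are built from an alpha and a beta chain that travel with the invariant chain until a peptide is loaded, and the transcription of all of these chains depends largely on the coactivator CIITA. C1q, the recognition subunit of the classical complement pathway, is assembled from 3 different chains and is made largely by tissue macrophages. The RNA was from whole glands, so fewer cells of a type and less RNA per cell cannot be told apart.

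The tables gave 8020111 to 29568950 estimated counts per library, and the 9 genes together took 0.015% to 0.0334% of them. Their summed counts per library ran between 2151 and 7201, and the lowest count of any member was 16, for Adgre1 in the ACTH-treated Siah1a-/- male. All 9 genes passed the filter on low counts, and 15361 genes were tested. Levels are given as counts scaled to library size by the trimmed mean of M values (CPM), or as reads scaled to both transcript length and library size (RPKM) where genes are compared with one another. A gene was called when its p-value from edgeR's quasi-likelihood test, adjusted over all tested genes by the Benjamini-Hochberg method, was under 0.05. Siah1a itself, the targeted gene, had 19.0 and 17.4 CPM in ACTH-treated Siah1a-/- glands and 25.2 and 21.2 CPM in untreated Siah1a-/- glands, against 33.1 and 32.4 CPM in ACTH-treated and 26.3 and 26.1 CPM in untreated wild-type glands. The Siah1a groups did not overlap, and the fitted log2 difference was -0.52 (SE 0.23, adjusted p = 0.383). No source used here says which exons the allele removes, so the Siah1a reads check the genotype labels only in part.

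A pair of wild-type libraries stood apart. One labelled as an untreated wild-type male held 1886 CPM of 6 kidney tubule markers, where the other libraries held 7.88 CPM or less. The ACTH-treated wild-type female library held 60212 CPM of 6 hepatocyte markers and 180.7 CPM of 6 markers of Kupffer cells, the macrophages of the liver, against at most 663.6 and 7.14 CPM in the others. The one with kidney markers also had 387.7 CPM of Xist and 3.06 CPM of Y-linked transcripts, where the other libraries labelled male had 490.4 to 605.3 CPM of Y-linked transcripts. Its label is kept below, and results are also given without this library and the one with liver transcripts where that matters. The ACTH-treated wild-type male held 31.8 CPM of Xist, more than the 4.05 and 5.98 CPM of the untreated and ACTH-treated Siah1a-/- males. Y-linked transcripts summed to 23.5 CPM in the ACTH-treated wild-type female and reached at most 3.91 CPM in the Siah1a-/- and untreated wild-type females. The source of these reads was not tested, and both libraries keep their labels.

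Each of the adrenal libraries held transcripts of all 9 genes, with Cd74 and H2-Aa highest and Adgre1 lowest on average. In RPKM, Cd74 averaged 46.4 ± 20.4, H2-Aa 27.0 ± 11.4, C1qb 18.8 ± 7.38, C1qc 17.1 ± 4.96 and C1qa 16.5 ± 7.0 (SD, n = 8). H2-Ab1 averaged 15.5 ± 5.16, Csf1r 9.13 ± 2.58, Cd68 5.43 ± 2.19 and Adgre1 3.18 ± 2.17 RPKM (SD, n = 8). Cd74 exceeded H2-Aa within all 8 libraries, and H2-Ab1 exceeded Csf1r within all 8. The order in between was not fixed: H2-Aa exceeded C1qb in 5 libraries, C1qb exceeded C1qc in 6, C1qc exceeded C1qa in 5 and C1qa exceeded H2-Ab1 in 4.

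**Figure D1:**
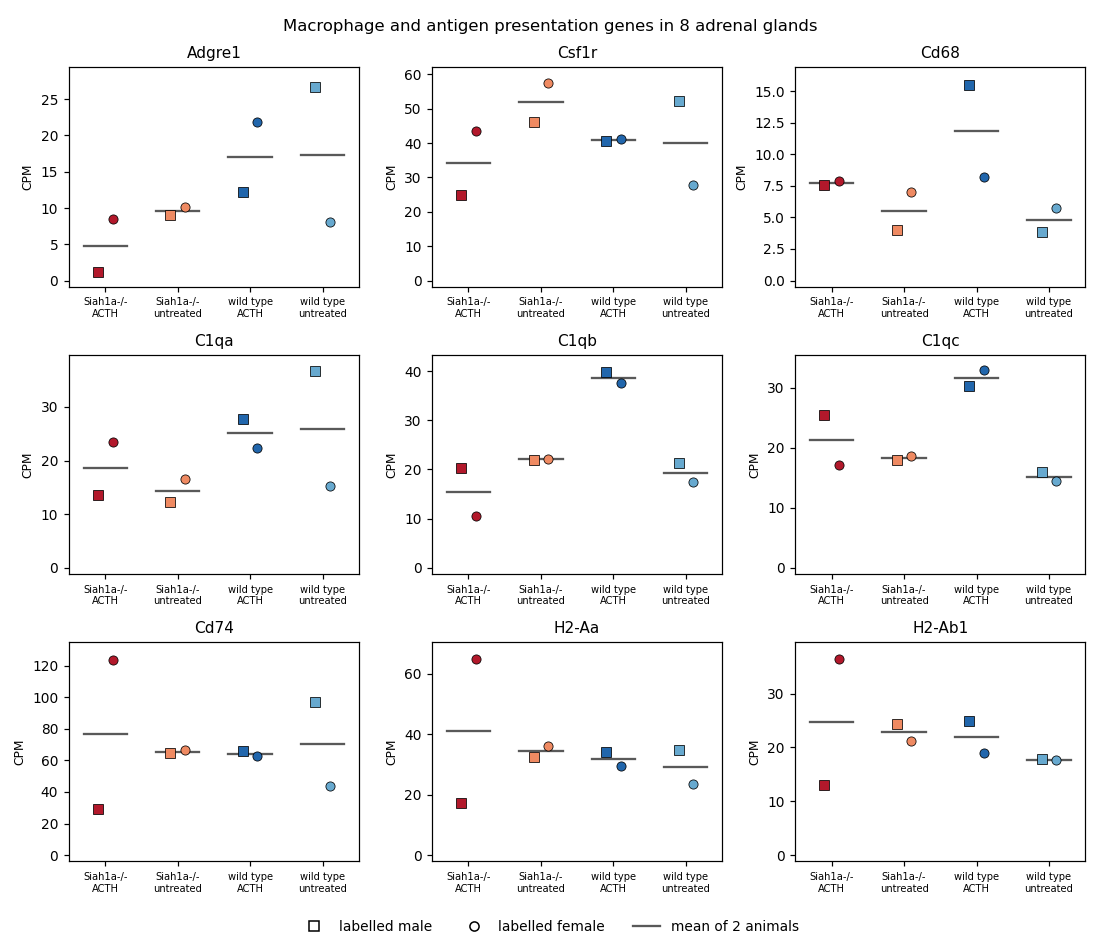
Level in CPM of each of the 9 genes (y axis, linear) in every library by group (x axis), with squares for animals labelled male, circles for animals labelled female and a bar for the mean of 2 animals. Cd74, H2-Aa and H2-Ab1 are lowest in the ACTH-treated Siah1a-/- male and highest in the ACTH-treated Siah1a-/- female, and Cd68 is higher in all 4 ACTH libraries than in any untreated one.

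The first question was whether loss of Siah1a went with a different level of these transcripts. None of the 9 was called between Siah1a-/- and wild-type glands, with adjusted p-values between 0.418 and 0.988. Over all genes the same comparison called 4 of 15361 (0.026%), 1 higher and 3 lower in Siah1a-/- glands, while 2065 genes had an unadjusted p under 0.05. The members' fitted log2 differences lay between -1.47 and 0.25 with a median of -0.15, and the median over all tested genes was -0.04. In no member did the 4 Siah1a-/- libraries lie wholly above or below the 4 wild-type libraries, which 8.92% of all tested genes did (4.21% higher and 4.71% lower in Siah1a-/- glands).

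The second question was what 1 h of ACTH did. No member was called, with adjusted p-values between 0.806 and 1.0, and over all genes ACTH called 3 of 15361 (0.0195%), all 3 higher. The fitted log2 differences of ACTH against untreated lay between -0.69 and 0.91, with a median of 0.17 against 0.02 for all tested genes. The third comparison, the interaction, takes the ACTH difference in Siah1a-/- glands minus the ACTH difference in wild-type glands. It called 0 of 15361 genes (0.0%) with edgeR's quasi-likelihood test and 10 with DESeq2, no member being among them, and 283 genes had an unadjusted p under 0.05. No member was called between animals labelled female and animals labelled male, where 4 of 15361 genes (0.026%) were called and every member had an adjusted p of 1.0. No member separated the sex labels, which 1.9% of all tested genes did (0.976% higher and 0.924% lower in animals labelled female), with the sex labels taken as given.

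**Figure D2:**
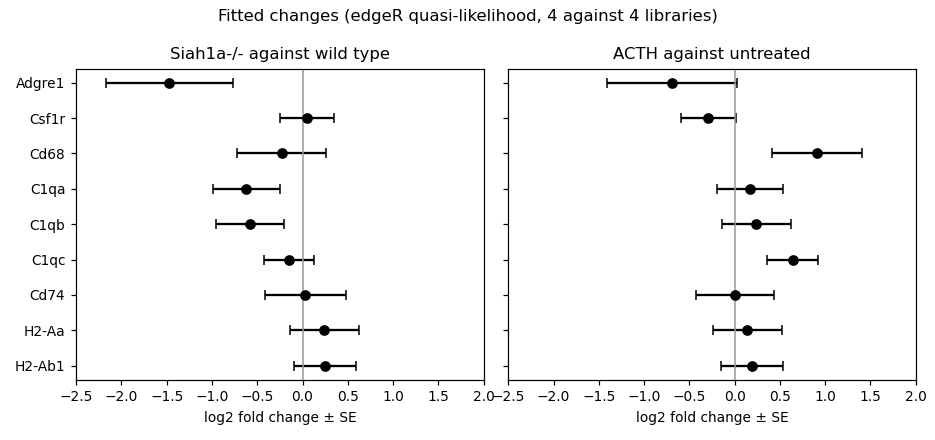
Fitted log2 fold change (x axis) of each gene (y axis) for Siah1a-/- against wild type on the left and ACTH against untreated on the right, with bars of 1 SE. Adgre1 lies lowest in both panels, at -1.47 and -0.69, and Cd68 lies highest for ACTH, at 0.91.

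Adgre1 encodes F4/80, an adhesion-type receptor on the surface of mouse macrophages. Its single annotated transcript in the tables lies on the plus strand at chr17:57358581-57483529 (GRCm38/mm10). Adgre1 measured 1.14 and 8.5 CPM in ACTH-treated and 9.04 and 10.1 CPM in untreated Siah1a-/- glands, the male first in each pair. In wild-type glands it measured 12.2 and 21.9 CPM after ACTH and 26.7 and 8.05 CPM untreated. The Siah1a-/- values were mostly the lower ones, but the untreated wild-type female lay among them. The means were 7.19 ± 4.09 CPM in Siah1a-/- and 17.2 ± 8.59 CPM in wild-type glands (SD, n = 4 each), a fitted log2 difference of -1.47 (SE 0.70, adjusted p = 0.418). The highest wild-type values belonged to the library with kidney transcripts and the library with liver transcripts. Without these 2 libraries the Adgre1 difference was -0.73 (SE 0.85, adjusted p = 0.928), and the Kupffer cell markers summed to 180.7 CPM in the wild-type female given ACTH. Adgre1 had the widest spread of the 9, with a 23.45-fold gap between its highest and lowest library.

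Csf1r encodes the receptor for the macrophage growth factors CSF1 and IL-34 and lies on the plus strand at chr18:61105572-61131139. It measured 25.0 and 43.5 CPM in ACTH-treated and 46.2 and 57.4 CPM in untreated Siah1a-/- glands, against 40.7 and 41.2 CPM in ACTH-treated and 52.3 and 27.7 CPM in untreated wild-type glands. The genotypes overlapped throughout. Csf1r averaged 43.1 ± 13.4 CPM in Siah1a-/- and 40.5 ± 10.1 CPM in wild-type glands (SD, n = 4 each), a log2 difference of 0.05 (SE 0.30, adjusted p = 0.967). The gene spans Mir6983 and shares 873 bases with Hmgxb3 on the opposite strand. The library kit is directional by name, but no source used here says whether strand entered the counting, so reads in the shared stretch may belong to either gene.

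Cd68 encodes macrosialin, a glycoprotein of macrophage lysosomes, and lies on the minus strand at chr11:69664213-69666170. It measured 7.61 and 7.89 CPM in ACTH-treated Siah1a-/- glands and 15.5 and 8.17 CPM in ACTH-treated wild-type glands. Without ACTH it measured 3.99 and 6.99 CPM in Siah1a-/- glands and 3.88 and 5.75 CPM in wild-type glands. All 4 ACTH libraries therefore lay above all 4 untreated ones, and ACTH was higher in 4 of 4 pairs matched on genotype and sex label. Cd68 averaged 9.79 ± 3.8 CPM after ACTH and 5.15 ± 1.49 CPM without it (SD, n = 4 each). The fitted log2 difference of 0.91 (SE 0.50) did not pass the test (adjusted p = 0.845). Cd68 was 1 of the 9 members with ACTH wholly above untreated, a pattern of 2.1% of all tested genes, while 3.89% did not overlap in either direction and 1.8% were lower with ACTH. Without the 2 wild-type libraries that stood apart the Cd68 groups still did not overlap, as for 11.3% of all tested genes in either direction, and the log2 difference was 0.86 (SE 0.59, adjusted p = 0.944). Between genotypes Cd68 averaged 6.62 ± 1.8 CPM in Siah1a-/- and 8.32 ± 5.08 CPM in wild-type glands (SD, n = 4 each), with a log2 difference of -0.23 (SE 0.49, adjusted p = 0.886).

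The tables split Cd68 between a coding transcript, NM_001291058, and a noncoding one, NR_110993, and the authors' estimates of that split differed widely. The noncoding share of the Cd68 count was 0.0% and 0.005% in the ACTH-treated and 100.0% and 3.307% in the untreated Siah1a-/- male and female. In the wild type it was 1.035% and 4.519% after ACTH and 56.465% and 26.129% untreated. The noncoding share was thus under 5% in every ACTH library and in the untreated Siah1a-/- female, on Cd68 counts of only 33 to 379 per library. The tables give no error for this split, and no test was made of it.

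Promoters are shown for the members that had a matched sequence, Cd68, C1qb, C1qc and H2-Aa. RefSeq sequences of 300 bases, 250 before and 50 after the transcription start on GRCm38.p6, were matched by symbol for 4 of the 9 genes. These were searched on both strands for CCAAT, the site of NF-Y, for TGACGTCA, the cAMP response element, and for GAGGAA, a core bound by the macrophage factor PU.1. Capitals mark matches, and a match on the other strand reads ATTGG for CCAAT and TTCCTC for GAGGAA. Of 32851 mouse promoters of this length, 37.4% held CCAAT, 1.79% TGACGTCA and 28.3% GAGGAA. In Cd68, at chr11:69666121-69666420 on the minus strand, CCAAT began at bases -230, -84 and -60 from the start and GAGGAA at -225 and 30, the first of each standing side by side.
Cd68: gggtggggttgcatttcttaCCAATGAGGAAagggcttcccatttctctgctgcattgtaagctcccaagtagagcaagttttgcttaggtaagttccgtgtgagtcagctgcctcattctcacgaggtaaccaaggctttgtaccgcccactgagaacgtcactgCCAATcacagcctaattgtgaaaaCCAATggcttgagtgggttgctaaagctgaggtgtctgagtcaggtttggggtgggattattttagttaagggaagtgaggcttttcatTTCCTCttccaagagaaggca

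C1qa, C1qb and C1qc encode the A, B and C chains of C1q and lie together on the minus strand within 18.7 kb of chromosome 4, at chr4:136880126-136898844. C1qb lies at chr4:136880126-136886200, C1qc at chr4:136889801-136892936 and C1qa at chr4:136895916-136898844. The C1qb promoter, at chr4:136886151-136886450, and the C1qc promoter, at chr4:136892865-136893164, are both on the minus strand. Each held 1 GAGGAA, at -30 in C1qb and -193 in C1qc, and neither held CCAAT or TGACGTCA in these 300 bases.
C1qb: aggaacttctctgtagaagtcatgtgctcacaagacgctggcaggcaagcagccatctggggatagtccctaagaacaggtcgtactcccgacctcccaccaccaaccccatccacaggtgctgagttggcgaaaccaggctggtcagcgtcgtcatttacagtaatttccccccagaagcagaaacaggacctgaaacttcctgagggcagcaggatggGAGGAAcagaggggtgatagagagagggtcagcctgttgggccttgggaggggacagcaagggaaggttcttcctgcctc
C1qc: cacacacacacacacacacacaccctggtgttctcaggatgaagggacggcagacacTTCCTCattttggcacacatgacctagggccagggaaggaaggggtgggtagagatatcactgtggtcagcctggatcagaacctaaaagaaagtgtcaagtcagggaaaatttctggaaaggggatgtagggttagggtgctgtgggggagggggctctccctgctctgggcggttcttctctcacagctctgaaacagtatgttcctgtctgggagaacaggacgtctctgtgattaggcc

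C1qb measured 20.3 and 10.6 CPM in ACTH-treated and 21.9 and 22.2 CPM in untreated Siah1a-/- glands, the male first in each pair. In wild-type glands it measured 39.8 and 37.6 CPM after ACTH and 21.3 and 17.4 CPM untreated. Both ACTH-treated wild-type glands lay above the 6 others, and both ACTH-treated Siah1a-/- glands lay below the untreated ones of their genotype. The interaction was -1.57 on the log2 scale (SE 0.53), with an unadjusted edgeR p of 0.0213 and an adjusted p of 1.0, so it was not called. C1qb was the 1 member of 9 with an unadjusted interaction p under 0.05, as were 1.84% of all tested genes. Without the 2 wild-type libraries that stood apart, which leaves 1 animal in each wild-type group assumed to vary like the rest, the interaction was -1.32 (SE 0.87, adjusted p = 1.0). The Kupffer cell markers summed to 180.7 CPM in the wild-type female given ACTH and 7.14 CPM in the wild-type male given ACTH. Their part in the C1qb values was not tested. For C1qb and C1qc, the part of that male's Xist reads and that female's Y-linked reads was not tested either.

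C1qc measured 25.5 and 17.1 CPM in ACTH-treated and 18.0 and 18.7 CPM in untreated Siah1a-/- glands, against 30.3 and 32.9 CPM in ACTH-treated and 15.9 and 14.4 CPM in untreated wild-type glands. The ACTH-treated wild-type pair was again highest, and the untreated wild-type pair lowest. C1qc averaged 26.4 ± 6.96 CPM after ACTH and 16.7 ± 1.97 CPM without it (SD, n = 4 each), higher in 3 of 4 matched pairs. The fitted log2 difference was 0.64 (SE 0.28), with an unadjusted edgeR p of 0.0562 and an adjusted p of 0.806. The interaction was -0.87 (SE 0.52, adjusted p = 1.0). Without the 2 libraries that stood apart, the ACTH difference of C1qc was 0.34 (SE 0.34, adjusted p = 0.955) and that of C1qb was -0.27 (SE 0.41, adjusted p = 0.978), against 0.24 (SE 0.38, adjusted p = 0.955) for C1qb with all 8.

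C1qa was not highest in the ACTH-treated wild-type pair, as its neighbours were. It measured 13.6 and 23.5 CPM in ACTH-treated and 12.2 and 16.6 CPM in untreated Siah1a-/- glands, against 27.8 and 22.3 CPM in ACTH-treated and 36.6 and 15.3 CPM in untreated wild-type glands. Its highest value came from the library with kidney transcripts. C1qa averaged 16.5 ± 5.03 CPM in Siah1a-/- and 25.5 ± 8.97 CPM in wild-type glands (SD, n = 4 each), a log2 difference of -0.62 (SE 0.37, adjusted p = 0.519), and -0.39 (SE 0.37, adjusted p = 0.908) without the 2 libraries. For C1qb the genotype difference was -0.58 (SE 0.38, adjusted p = 0.563) and for C1qc it was -0.15 (SE 0.28, adjusted p = 0.859). C1q protein takes the A, B and C chains in equal number, yet the A chain's share of the trio's RPKM lay anywhere between 22.5% in the ACTH-treated Siah1a-/- male and 49.1% in the library with kidney transcripts. The B chain's share was 20.9% in the ACTH-treated Siah1a-/- female and 42.1% in the untreated Siah1a-/- male, its lowest and highest values.

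Cd74 encodes the invariant chain, and H2-Aa and H2-Ab1 the alpha and beta chains of the class II molecule I-A. H2-Ab1, at chr17:34263227-34269418 on the plus strand, and H2-Aa, at chr17:34282744-34287823 on the minus strand, lie within 24.6 kb of each other. The H2-Aa promoter lies at chr17:34287774-34288073 on the minus strand. Class II promoters are known for an X2 box, which resembles a cAMP response element, followed by a Y box, which is an inverted CCAAT. In H2-Aa, TGACGTCA began at base -74 and ATTGG at -48, and GAGGAA was not found in this window.
H2-Aa: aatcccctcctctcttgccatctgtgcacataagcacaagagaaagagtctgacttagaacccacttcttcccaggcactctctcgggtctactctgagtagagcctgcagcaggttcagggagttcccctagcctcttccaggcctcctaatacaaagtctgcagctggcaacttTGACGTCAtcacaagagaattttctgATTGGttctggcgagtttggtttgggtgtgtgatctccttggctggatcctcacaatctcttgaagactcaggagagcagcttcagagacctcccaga

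Cd74 lies apart from them, on the plus strand at chr18:60803849-60812652, and spans Mir5107. It measured 29.5 and 123.7 CPM in ACTH-treated and 64.8 and 66.4 CPM in untreated Siah1a-/- glands, the male first in each pair, against 65.9 and 62.6 CPM in ACTH-treated and 97.1 and 43.8 CPM in untreated wild-type glands. The lowest and the highest library were thus the male and the female of the same group, Siah1a-/- with ACTH. Cd74 averaged 71.1 ± 39.0 CPM in Siah1a-/- and 67.4 ± 22.1 CPM in wild-type glands (SD, n = 4 each), a log2 difference of 0.03 (SE 0.45, adjusted p = 0.988). After ACTH it averaged 70.4 ± 39.1 CPM, and without ACTH 68.1 ± 21.9 CPM (SD, n = 4 each). The authors' estimates gave NM_001042605, 1 of its 2 listed transcripts, between 16.575% and 38.202% of the Cd74 count.

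H2-Aa measured 17.3 and 64.7 CPM in ACTH-treated and 32.6 and 36.0 CPM in untreated Siah1a-/- glands, against 34.1 and 29.4 CPM in ACTH-treated and 34.7 and 23.6 CPM in untreated wild-type glands. H2-Ab1 measured 13.0 and 36.5 CPM in ACTH-treated and 24.4 and 21.2 CPM in untreated Siah1a-/- glands, against 24.9 and 18.9 CPM in ACTH-treated and 17.9 and 17.6 CPM in untreated wild-type glands. Both chains repeated the extremes of Cd74, and their wild-type libraries lay inside the Siah1a-/- range. The genotype log2 differences were 0.24 for H2-Aa (SE 0.38, adjusted p = 0.833) and 0.25 for H2-Ab1 (SE 0.34, adjusted p = 0.802). The ACTH differences were 0.14 for H2-Aa (SE 0.38, adjusted p = 0.979) and 0.19 for H2-Ab1 (SE 0.34, adjusted p = 0.958).

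All 3 class II members were lowest in the ACTH-treated Siah1a-/- male and highest in the ACTH-treated Siah1a-/- female, a pattern that 345 of the 15361 tested genes (2.25%) shared. The female value was 4.19 times the male value for Cd74, 3.74 times for H2-Aa and 2.81 times for H2-Ab1. For H2-Eb1, the beta chain of the other class II molecule I-E and named after its values were seen, the female measured 39.1 CPM and the male 15.2 CPM, a ratio of 2.58. Its highest value, 58.4 CPM, was however in the library with kidney transcripts, and 0 of the 15 other class II pathway genes tested had both extremes in these animals. Other members differed between the same 2 animals by 7.47 times for Adgre1, 1.74 times for Csf1r, 1.73 times for C1qa and 1.04 times for Cd68, and the female lay lower for C1qc, at 0.67 times, and C1qb, at 0.52 times. Each value here is 1 animal, so the gap has no replicate and no test. Adipocyte markers also differed between these 2 animals. The 8 genes of that list summed to 5115 CPM in the ACTH-treated Siah1a-/- female and 2595 CPM in the male. Fabp4 made up most of each sum, with 3426 CPM in that female and 2187 CPM in that male. Cfd measured 683.2 and 116.6 CPM and Lipe 271.7 and 104.3 CPM in the same order. The 8-gene sum was lower than that male's in the untreated wild-type female (1821 CPM) and the untreated Siah1a-/- female (2313 CPM). The ACTH-treated wild-type male had 4502 CPM, and its 3 class II members summed to 124.9 CPM. Of the 8, 6 were lowest in the ACTH-treated Siah1a-/- male (3009 of 15361 tested genes were) and 3 highest in the female (1999 were). Cfd and Cidec, the second named after its values were seen, showed both extremes. The part of adipose tissue in the class II values was not tested. The T cell markers summed to 8.27 CPM in the female and 22.2 CPM in the male, and the B cell markers to 9.88 and 3.63 CPM.

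Set against C1q, the class II trio varied between animals. The ratio of summed RPKM of Cd74, H2-Aa and H2-Ab1 to summed RPKM of the 3 C1q chains was 0.907 in the male and 3.91 in the female of the ACTH-treated Siah1a-/- group, against 2.09 and 1.92 in untreated Siah1a-/- glands. In wild-type glands the ratio was 1.14 and 1.07 after ACTH and 1.81 and 1.6 untreated. Both ACTH-treated wild-type glands thus lay below both untreated ones, while the ACTH-treated Siah1a-/- pair lay on either side of its untreated pair. Within a library the H2-Aa to H2-Ab1 ratio stayed between 1.48 and 2.17, and the C1qb to C1qc ratio between 0.62 and 1.33.

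How alike the members were was described by the root mean square difference of log2(CPM + 0.5), centred per gene, over the 8 libraries. H2-Aa differed by 0.20 from Cd74 and by 0.20 from H2-Ab1, the smallest distances among the 9. C1qb and C1qc came next at 0.36, and Csf1r was nearer to H2-Aa, at 0.37, than to the other surface and lysosome genes, at 0.74 from Cd68 and 0.91 from Adgre1. C1qa was 0.47 from Cd74, 0.61 from C1qc and 0.67 from C1qb. Adgre1 lay 0.85 to 1.34 from the other members. These distances share the 8 libraries and their scaling and are given as a description.

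**Figure D3:**
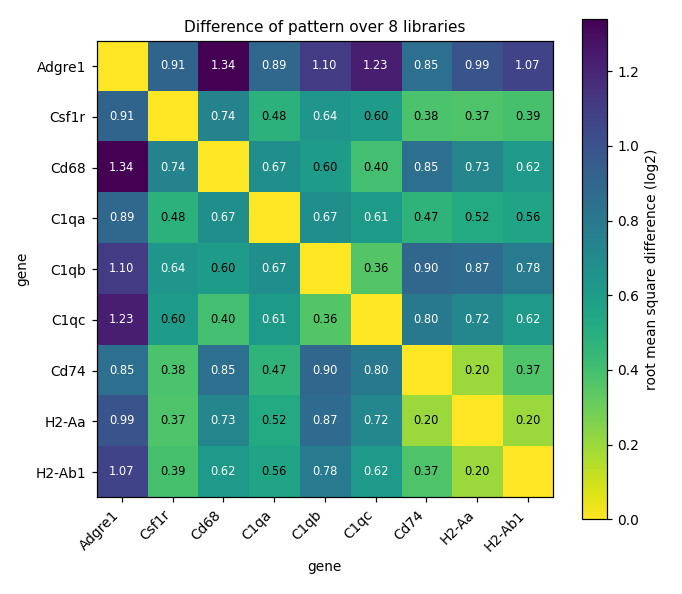
Root mean square difference of centred log2 CPM over 8 libraries for every pair of the 9 genes, with lower numbers for genes of more alike pattern. The class II trio forms the tightest group, at 0.20 to 0.37, and the row of Adgre1 runs between 0.85 and 1.34.

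The tested genes outside the 9 whose patterns lay nearest to each role group were found in the same way among 11533 genes with a mean of at least 5 CPM. For the mean pattern of Adgre1, Csf1r and Cd68 the nearest was Mpeg1, which encodes the macrophage pore protein perforin-2, at 0.11, followed by Anxa6, Tmem176b, Bcl6 and Mndal at 0.19 to 0.21. A gene that did not vary would lie at 0.49 from that pattern. Mpeg1 measured 21.8 and 47.7 CPM in ACTH-treated and 36.5 and 49.8 CPM in untreated Siah1a-/- glands, against 67.3 and 62.4 CPM in ACTH-treated and 70.6 and 39.1 CPM in untreated wild-type glands. For the C1q chains the nearest were Traf3ip1 and Nckap1l, both at 0.16, then Phyhd1, Psap and Pcx at 0.19 to 0.20, with an unvarying gene at 0.37. Nckap1l encodes a blood-cell subunit of the WAVE actin regulator, and Psap the precursor of the lysosomal saposins. For the class II trio the nearest were Zbtb20, a zinc finger repressor, at 0.16, then Grb14, Mzt2, Fkbp9 and Frmd4b at 0.19 to 0.21, with an unvarying gene at 0.48. Zbtb20 measured 28.0 and 71.9 CPM in ACTH-treated and 50.0 and 45.3 CPM in untreated Siah1a-/- glands, against 55.3 and 37.1 CPM in ACTH-treated and 51.3 and 38.0 CPM in untreated wild-type glands.

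No gene of the wider immune lists was called in any of the 4 comparisons. Among 33 wider macrophage genes the median log2 difference was -0.12 between genotypes and 0.06 for ACTH, against -0.04 and 0.02 for all tested genes. Its most abundant genes were Lyz2, the myeloid lysozyme, with 58.2 ± 21.4 CPM in Siah1a-/- and 96.1 ± 35.4 CPM in wild-type glands, Maf, a macrophage transcription factor, with 62.1 ± 16.1 and 86.8 ± 49.8 CPM in the same order (161.5 CPM in the library with kidney transcripts), and the scavenger receptor gene Stab1, with 46.9 ± 7.4 and 61.9 ± 18.6 CPM (SD, n = 4 each). In 2 of the 33 the genotypes did not overlap, against 8.92% of all tested genes. These were Trem2 and Siglec1, singled out after their values were seen.

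Trem2, a lipid-sensing receptor of macrophages, measured 26.2 and 16.5 CPM in ACTH-treated and 21.5 and 32.4 CPM in untreated Siah1a-/- glands, against 7.92 and 5.46 CPM in ACTH-treated and 1.88 and 7.5 CPM in untreated wild-type glands. All 4 Siah1a-/- libraries lay above all 4 wild-type libraries, by a fitted log2 difference of 2.11 (SE 0.51, adjusted p = 0.157), which was not called. DESeq2 called Trem2 (adjusted p = 0.00171), as it called 947 genes in all, and without the 2 libraries that stood apart the difference was 1.63 (SE 0.41, adjusted p = 0.321). Siglec1, the sialoadhesin of resident macrophages, was lower, with 0.0 and 1.15 CPM in ACTH-treated and 1.13 and 1.54 CPM in untreated Siah1a-/- glands, against 3.96 and 7.64 CPM in ACTH-treated and 6.7 and 2.68 CPM in untreated wild-type glands (adjusted p = 0.383).

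For ACTH, the values of Cd163, a haemoglobin scavenger receptor singled out after its values were seen, did not overlap. Cd163 lay between 11.6 and 12.8 CPM in the 4 ACTH libraries and between 0.0 and 10.8 CPM in the 4 untreated ones, with a log2 difference of 1.39 (SE 1.06, adjusted p = 0.901). Cd163 shared the separation of Cd68, which 2.1% of all tested genes showed, and like it did not pass the test.

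Among the 5 ligand genes of the macrophage growth and positioning receptors, Tgfb1 averaged 27.4 ± 7.66 CPM in Siah1a-/- and 26.3 ± 3.13 CPM in wild-type glands, and Cx3cl1 21.3 ± 9.72 and 17.1 ± 6.47 CPM in the same order (SD, n = 4 each). The CSF1R ligand Csf1 measured 8.11 and 15.0 CPM in ACTH-treated and 11.8 and 4.71 CPM in untreated Siah1a-/- glands, against 18.5 and 17.6 CPM in ACTH-treated and 17.3 and 13.1 CPM in untreated wild-type glands. The groups overlapped in 1 Siah1a-/- library, and the log2 difference was -0.76 (SE 0.40, adjusted p = 0.463). Il34, the other CSF1R ligand and named after its values were seen, measured 2.49 and 3.37 CPM in ACTH-treated and 5.85 and 19.5 CPM in untreated Siah1a-/- glands, against 12.7 and 22.1 CPM in ACTH-treated and 18.5 and 19.6 CPM in untreated wild-type glands. Its log2 difference was -1.66 (SE 0.50, adjusted p = 0.227).

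Of 18 other class II pathway genes 15 were tested, with a median log2 difference of -0.21 between genotypes and -0.12 for ACTH. The lysosomal proteases and reductase that prepare peptides were the most abundant. Lgmn averaged 183.9 ± 56.1 CPM in Siah1a-/- and 210.0 ± 84.7 CPM in wild-type glands, Ctss 40.0 ± 9.45 and 45.6 ± 10.3 CPM, and Ifi30 38.4 ± 8.15 and 46.4 ± 8.21 CPM in the same order (SD, n = 4 each). The highest Lgmn value, 335.3 CPM, came from the library with kidney transcripts. Apart from that library, wild-type Lgmn lay between 156.5 and 187.4 CPM, inside the Siah1a-/- range of 132.2 to 257.6 CPM. Ctss and Ifi30 were also highest in the library with kidney transcripts, at 59.7 and 58.6 CPM. Ciita, the class II coactivator, was near the floor of detection. It measured 0.0 and 0.536 CPM in ACTH-treated Siah1a-/- glands and 0.0 CPM in both untreated ones, against 1.1 and 0.802 CPM in ACTH-treated and 2.0 and 1.86 CPM in untreated wild-type glands. That was 7 counts in the Siah1a-/- libraries together and 99 in the wild-type libraries, where 3 counts correspond to 0.115 to 0.353 CPM in a library, counting error only. The Ciita groups did not overlap and the difference was not called (adjusted p = 0.452), while H2-Aa, H2-Ab1 and Cd74 overlapped between the same groups. Rfxap, a subunit of the factor that binds class II promoters, was the other gene of this list without overlap, at 19.3 to 22.7 CPM in Siah1a-/- and 12.0 to 17.6 CPM in wild-type glands (adjusted p = 0.563), and it was named after its values were seen. Of all tested genes, 8.92% did not overlap between genotypes.

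Of 13 class I pathway genes, all tested, the chaperones Calr and Pdia3 averaged 1045 ± 266.3 and 964.7 ± 126.3 CPM in Siah1a-/- glands and 761.5 ± 144.7 and 735.3 ± 100.2 CPM in wild-type glands (SD, n = 4 each). The class I heavy chain H2-K1 averaged 244.3 ± 24.8 CPM in Siah1a-/- and 257.5 ± 82.9 CPM in wild-type glands, and it lay between 245.6 and 369.0 CPM with ACTH and between 191.7 and 229.2 CPM without it (log2 difference 0.46, SE 0.16, adjusted p = 0.727). The genotypes did not overlap for Pdia3, higher in Siah1a-/- glands, or for Tap2, the peptide transporter subunit, named after its values were seen, at 26.4 to 39.3 CPM in Siah1a-/- and 40.2 to 47.0 CPM in wild-type glands (adjusted p = 0.435). Over all tested genes, 8.92% did not overlap between genotypes and 3.89% did not overlap between ACTH and untreated libraries, as H2-K1 did not.

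Of 13 other complement genes 11 were tested, with a median log2 difference of -0.29 between genotypes and 0.29 for ACTH. C3, the protein on which the complement pathways converge, measured 36.8 to 102.8 CPM in the 4 Siah1a-/- libraries and 429.0 to 3655 CPM in the 4 wild-type libraries. The highest C3 value was in the library with liver transcripts, and liver is a main source of C3. The other wild-type libraries held 429.0 to 1432 CPM of C3. The log2 difference of -3.96 (SE 0.60) did not pass with all 8 libraries (adjusted p = 0.0882, edgeR). Without the 2 libraries that stood apart, which leaves 1 animal in each wild-type group, it was -3.85 (SE 0.33). With all 8 libraries C3 was called by edgeR without the filter on low counts (adjusted p = 0.0408). limma-voom (adjusted p = 0.0134) and DESeq2 (adjusted p = 2.61e-07) also called it. edgeR did not call it with the robust fit (adjusted p = 0.139) or another scaling of library size (adjusted p = 0.0841). Nor did edgeR call it without the sex covariate (adjusted p = 0.0857) or with the interaction in the model (adjusted p = 0.0812). C4b, cleaved downstream of C1q, averaged 89.8 ± 31.2 CPM in Siah1a-/- and 131.9 ± 116.7 CPM in wild-type glands (SD, n = 4 each). The wild-type mean rested on the library with liver transcripts, at 306.8 CPM, and the other wild-type libraries had 69.3 to 80.7 CPM of C4b, inside the Siah1a-/- range of 61.0 to 125.5 CPM. C5ar1, the receptor for the C5a fragment and named after its values were seen, lay between 2.84 and 5.52 CPM in Siah1a-/- and between 0.706 and 2.82 CPM in wild-type glands (adjusted p = 0.473). C3 and C5ar1 did not overlap between genotypes, as for 8.92% of all tested genes.

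**Figure D4:**
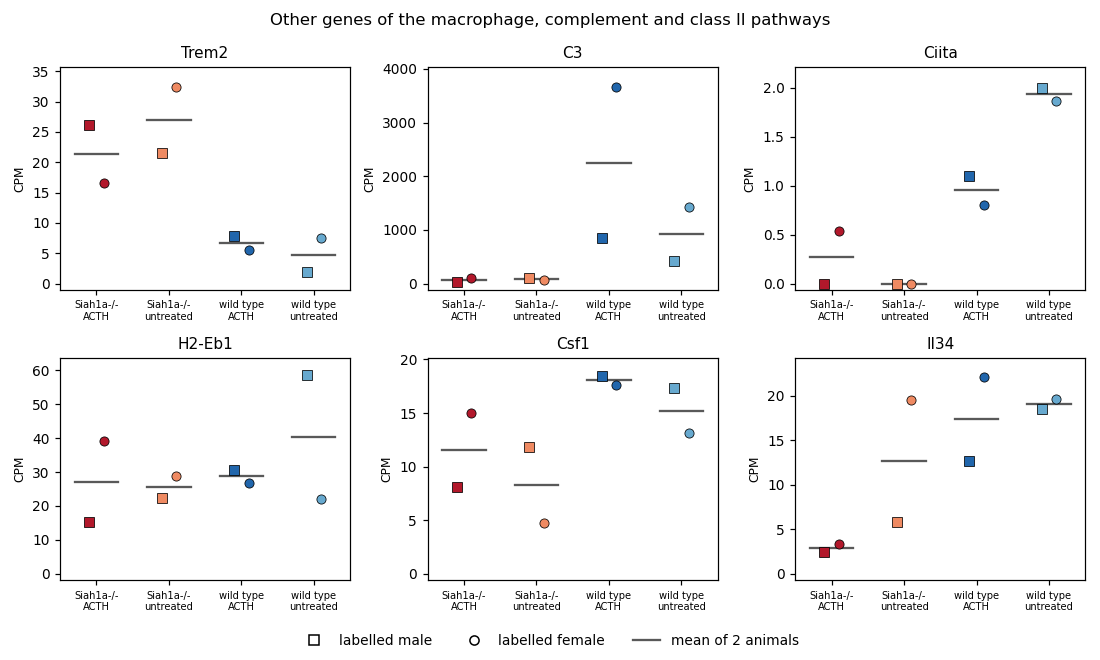
Level in CPM (y axis, linear, a separate scale per panel) of Trem2, C3, Ciita, H2-Eb1, Csf1 and Il34 in every library by group (x axis), with squares for animals labelled male, circles for animals labelled female and a bar for the mean of 2 animals. Trem2 is higher, and C3 and Ciita are lower, in all 4 Siah1a-/- libraries than in all 4 wild-type libraries, while H2-Eb1, Csf1 and Il34 overlap.

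Of the lists for other cells that carry class II or lie beside macrophages, the T cell and B cell lists had the lowest sums. The T cell list summed to 8.27 to 22.2 CPM in Siah1a-/- and 4.82 to 19.4 CPM in wild-type libraries, and the B cell list to 1.14 to 9.88 and 3.01 to 9.06 CPM. The dendritic cell list summed to 33.4 to 47.8 CPM in Siah1a-/- and 30.7 to 49.3 CPM in wild-type libraries, with Irf8, a transcription factor of dendritic cells, at 19.8 ± 10.2 and 21.9 ± 10.5 CPM (SD, n = 4 each). Batf3, of the same list, and the T cell kinase gene Lck were higher without overlap, both named after their values were seen. Batf3 lay at 2.6 to 7.54 CPM in Siah1a-/- and 0.0 to 2.06 CPM in wild-type libraries (adjusted p = 0.407). Lck lay at 3.06 to 8.04 CPM in Siah1a-/- and 2.41 to 2.94 CPM in wild-type libraries (adjusted p = 0.616). Non-overlap between genotypes was found in 8.92% of all tested genes. The monocyte and neutrophil list summed to 37.9 to 56.8 CPM in Siah1a-/- and 14.4 to 138.2 CPM in wild-type libraries, the 138.2 being in the library with kidney transcripts. That library also held the highest value of 15 of 33 wider macrophage genes and of 2 of the 9 members, against 19.0% of all tested genes.

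The glands carried their own markers throughout. The 7 genes of adrenal cortex summed to 38359 to 51212 CPM in Siah1a-/- and 26955 to 45417 CPM in wild-type libraries, with Star, the steroidogenic cholesterol carrier, at 15566 ± 2547 and 14528 ± 3540 CPM (SD, n = 4 each). The 5 chromaffin genes summed to 1800 to 7369 CPM in Siah1a-/- and 1997 to 3991 CPM in wild-type libraries, lowest in the ACTH-treated Siah1a-/- female. That female is the animal with the highest class II values, and the part of these markers in them was not tested.

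**Figure D5:**
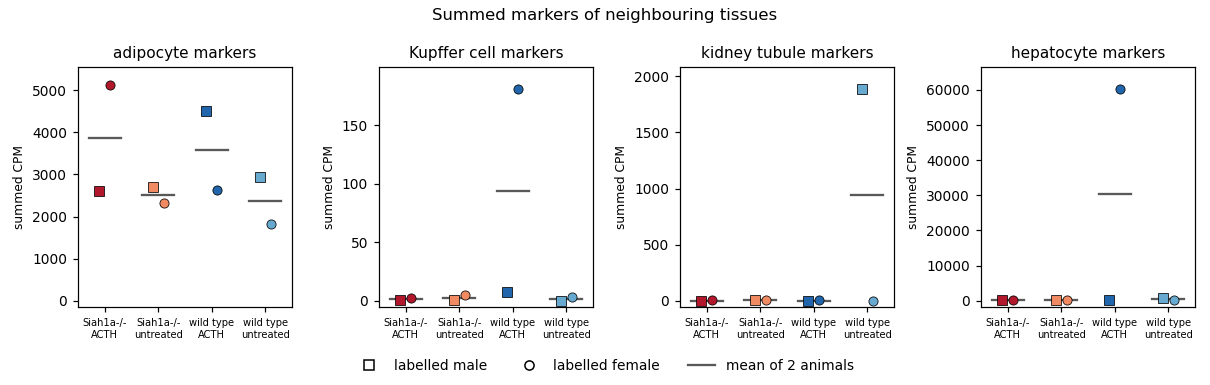
Summed CPM (y axis, linear, a separate scale per panel) of the adipocyte, Kupffer cell, kidney tubule and hepatocyte lists in every library by group (x axis), with squares for animals labelled male circles for animals labelled female and a bar for the mean of 2 animals. Kidney tubule markers stand out at 1886 CPM in the untreated wild-type library labelled male, and the wild-type female given ACTH reaches 60212 CPM of hepatocyte and 180.7 CPM of Kupffer cell markers.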

How the data were processed

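RNA-seq of mouse adrenal glands was analysed from 8 deposited tables, 1 per library, each with an estimated count and an RPKM value per RefSeq transcript. Per the labels' protocols, RNA was reverse transcribed with oligo-dT and random hexamer primers, made into directional libraries and sequenced from one end. The submitters' processing notes name the build mm10 and, with no role given, TopHat2 2.0.13, Partek 6.6, Bowtie2 2.2.5.0 and FastQC 0.11. The deposited estimated counts, not whole in 43.6% to 53.8% of values, were summed per symbol over 28678 transcripts to 18846 genes and rounded to whole numbers. The deposited RPKM values were summed per symbol and used only to compare genes within a library.

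Libraries were grouped by their labels, which do not state that the mice were littermates or otherwise matched. Genotype, treatment and sex label entered 1 edgeR 4.0.16 quasi-likelihood fit (R 4.3.3) over all 8 libraries, with TMM scaling and filterByExpr at a minimum count of 10, and the interaction was added for its own test. p-values were adjusted by Benjamini-Hochberg over 15361 genes. The fit was also run on simulated counts with the same fixed spread for every gene, which was not estimated from these animals. That run checks the code, not the power or error rate in these data. limma 3.58.1 (voom), DESeq2 1.42.0, other scaling and filters, and fits without single libraries served as alternatives. Totals differed 3.69-fold between libraries. Floors cover counting error only, while each SE comes from its fit and includes the spread between animals.

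The members and lists were chosen with earlier results of these data known. The naming rule allowed the 9 members, and of each other list its called genes or else up to 3 genes of highest mean CPM, Ciita, and the 5 genes nearest to each role group in pattern. Genes named outside this rule are marked in the text as chosen after their values were seen. Some genes of the lists are not reported here.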

Additional observations from a re-analysis of the deposited data

Results flagged for a closer look

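For each of the 9 genes the 4 libraries of each genotype and of each treatment were searched for a highest or lowest library far from the other 3 (a gap above Dixon's critical value). Of 36 such groups 4 held one, and chance alone gives about 1 in 20. Adgre1 measured 26.7 CPM in the untreated wild-type library labelled male, against 8.05 to 10.1 CPM in the other untreated libraries. Csf1r measured 25.0 CPM in the ACTH-treated Siah1a-/- male, below the 40.7 to 43.5 CPM of the other ACTH libraries. Cd68 measured 15.5 CPM in the ACTH-treated wild-type male, above the 7.61 to 8.17 CPM of the other ACTH libraries. C1qb measured 10.6 CPM in the ACTH-treated Siah1a-/- female, below the 20.3 to 22.2 CPM of the other Siah1a-/- libraries.

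C1qb also lay in opposite directions after ACTH in the 2 genotypes, in every library. It was lower with ACTH in Siah1a-/- glands (20.3 and 10.6 CPM with ACTH, 21.9 and 22.2 CPM without) and higher with ACTH in wild-type glands (39.8 and 37.6 CPM with ACTH, 21.3 and 17.4 CPM without). The test of the difference itself gave an interaction of -1.57 on the log2 scale, which was not called (adjusted p = 1.0, edgeR). How many of all tested genes lay in opposite directions in this way was not counted. An unadjusted edgeR interaction p under 0.05 was found for 1.84% of all tested genes.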

How the results depend on the processing

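None of the 9 members was called in any comparison under any alternative that was run, the lowest adjusted p over them being 0.133 between genotypes, 0.592 for ACTH, 0.66 for the interaction and 0.966 between sex labels. Under the alternatives 133 of 144 member values did not reverse direction between genotypes, and 133 of 144 did not for ACTH. For the interaction 119 of 135 did not, and between sex labels 106 of 126 did not. A value that rounded to 0.0 had no direction and was counted as not reversed. The main ACTH value of Cd74 was 0.0, so all of its alternatives were counted in this way. The number of genes called over the whole table depended strongly on the method. Between genotypes it was 41 with no filter on low counts, 947 with DESeq2, 108 with limma-voom, 22 with edgeR's robust fit and 1 without the sex covariate, and 0 to 253 with 1 library left out, against 4. For ACTH it was 8 with no filter, 123 with DESeq2, 5 with the robust fit and 0 without the sex covariate, with the interaction in the model or without the 2 wild-type libraries that stood apart, and 0 to 23 with 1 library left out, against 3. For the interaction it was 10 with DESeq2, 2 without those 2 libraries and 0 to 11 with 1 library left out, against 0. Between sex labels it was 7 with no filter, 21 with DESeq2, 0 with limma-voom, 7 without those 2 libraries and 1 to 25 with 1 library left out, against 4. The cause of these shifts was not tested.

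Directions of small differences turned in several settings, where the cause was not tested. With limma-voom the log2 value was 0.29 for Adgre1 under ACTH, -0.24 for Cd74 and -0.28 for H2-Aa in the interaction, and -0.34 for Cd68 between sex labels. Without the 2 wild-type libraries that stood apart it was -0.27 for C1qb under ACTH, -1.15 for C1qa, -1.75 for Cd74 and -1.58 for H2-Aa in the interaction, and 0.32 for C1qa between sex labels. With 1 library left out at a time, the genotype difference ran between -0.27 and 0.32 for Csf1r, -0.5 and 0.17 for Cd68, -0.31 and 0.06 for C1qc, -0.51 and 0.42 for Cd74, -0.2 and 0.59 for H2-Aa, and -0.08 and 0.54 for H2-Ab1. For Cd74, H2-Aa and H2-Ab1 the lowest of these values came without the ACTH-treated Siah1a-/- female and the highest without the male of that group. The ACTH difference ran between -1.4 and 0.02 for Adgre1, -0.1 and 0.54 for C1qa, -0.01 and 0.59 for C1qb, -0.52 and 0.4 for Cd74, -0.29 and 0.49 for H2-Aa, and -0.13 and 0.49 for H2-Ab1. The interaction ran between -1.4 and 0.01 for Cd68, -0.54 and 1.02 for C1qa, -1.31 and 1.14 for Cd74, -1.25 and 0.86 for H2-Aa, and -1.21 and 0.48 for H2-Ab1, while it stayed between -2.02 and -1.19 for C1qb. The difference between sex labels ran between -0.22 and 1.23 for Adgre1, -0.22 and 0.38 for Csf1r, -0.15 and 0.47 for Cd68, -0.33 and 0.22 for C1qa, -0.58 and 0.02 for C1qb, -0.31 and 0.08 for C1qc, -0.31 and 0.63 for Cd74, -0.12 and 0.58 for H2-Aa, and -0.15 and 0.4 for H2-Ab1. Among the other named genes, the C3 difference between genotypes ran between -4.65 and -3.55 with 1 library left out at a time. C3 was called in some of these fits and not in others, and each leaves 1 animal in a group. No paired test was run because the labels do not state which animals belong together. Pairs matched on genotype and sex label only describe the values. Sex label, shared across groups, was a covariate in place of a block. It was taken as given for the untreated wild-type library labelled male, which held 387.7 CPM of Xist.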
